A study of Mus musculus with 20 samples.

Results

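Formative pluripotency genes are described here through the open chromatin around them. The regions are the ATAC-seq peaks of mouse embryonic stem (ES) cells that overlapped Otx2, Pou3f1, Foxd3, Zic2, Sall2 or Fgf5, or lay within 50000 bp of the gene body. They numbered 58 of the 102373 peaks in the deposited list. A further entry of the gene list, "Oct4-none", named no annotated gene, so 6 of 7 names were matched in the GENCODE annotation of GRCm38 (mm10). Sall2 had 14 listed peaks, Pou3f1 13, Otx2 12, Zic2 9, Foxd3 8 and Fgf5 2. A listed peak lay over the annotated 5′ end of every one of these genes except Sall2, whose nearest peak was 965 bp away. The peaks over the 5′ ends of Pou3f1, Zic2 and Foxd3 were each wider than 2000 bp, a width that 506 of all listed peaks passed. No peak of the 58 held a match to the composite OCT4::SOX2 motif in a strict letter search with up to 2 mismatches. That search called only 0.243% of all listed peaks, so a count of 0 in 58 is at the background and says little about the motif.

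Formative pluripotency is the state between naive ES cells, which model the preimplantation epiblast, and cells primed for germ layer formation. On leaving the naive state, cells lower naive factors such as ESRRB and KLF4 and raise OTX2, a homeodomain factor, and POU3F1, a POU factor also called OCT6, together with the secreted growth factor FGF5, which is a widely used marker of the transition. FOXD3 is a forkhead factor of the epiblast and neural crest, ZIC2 a zinc finger factor of the epiblast and neural tube, and SALL2 a spalt-type zinc finger factor. OCT4 is present in naive and in formative cells and binds DNA with SOX2 at many enhancers.

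The cells were of the ZHBTc4 line, in which doxycycline (dox) shuts off OCT4 expression, and all of them carried YPet-MD, a fluorescent protein with a mitotic degron. They also carried SNAP-MD-OCT4, which the degron removes as cells pass from mitosis into G1, or SNAP-MD*-OCT4, whose degron is mutated. Both are lentiviral transgenes, and OCT4 in the dox-treated cells was below the wildtype level. The 20 libraries formed 10 groups of 2: for each construct, cells kept 40 h in 1 µg/ml dox and sorted as early G1, late G1, S or late S/G2 (4 groups), and unsorted cells that received no dox. All cells grew in serum with LIF and the inhibitors CHIR99021 and PD184352, a medium that favours the naive state, and no group was labelled as formative cells. The list joins the peaks of the 16 dox-treated libraries and gives coordinates alone, so it holds no level, no depth and no replicate error, and neither the constructs nor the cell cycle phases could be compared. A region is listed if it was called in any of them, and the lack of a listed peak is not a measurement of closed chromatin.

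The sequences just upstream of the 5′ ends are shown because a listed peak covered them at every gene except Sall2, and because their CpG content differed. Each line gives the 100 bases before the annotated 5′ end in GRCm38, read 5′ to 3′ on the strand of the gene, with CpG dinucleotides, the target of vertebrate DNA methylation, in capitals.
Pou3f1, chr4:124656707-124656806, plus strand: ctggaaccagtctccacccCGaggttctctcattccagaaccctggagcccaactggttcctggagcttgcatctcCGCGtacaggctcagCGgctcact
Zic2, chr14:122475335-122475434, plus strand: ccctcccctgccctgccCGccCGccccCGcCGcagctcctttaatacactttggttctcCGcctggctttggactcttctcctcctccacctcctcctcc
Foxd3, chr4:99656199-99656298, plus strand: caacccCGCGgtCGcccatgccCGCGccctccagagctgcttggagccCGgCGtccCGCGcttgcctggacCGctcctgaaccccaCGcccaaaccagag
Fgf5, chr5:98254084-98254183, plus strand: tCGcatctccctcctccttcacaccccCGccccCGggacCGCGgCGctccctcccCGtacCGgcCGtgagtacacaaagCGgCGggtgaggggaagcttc
Otx2, chr14:48673820-48673919, minus strand: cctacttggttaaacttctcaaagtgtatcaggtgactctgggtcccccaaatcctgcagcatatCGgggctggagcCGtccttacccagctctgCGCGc
Sall2, chr14:52328763-52328862, minus strand: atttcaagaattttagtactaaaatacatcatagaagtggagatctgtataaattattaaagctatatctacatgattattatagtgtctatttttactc
Sall2, second annotated start, chr14:52316324-52316423, minus strand: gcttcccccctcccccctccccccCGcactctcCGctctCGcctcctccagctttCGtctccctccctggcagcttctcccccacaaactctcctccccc
Foxd3 and Fgf5 had 11 CpG each in these bases, Zic2 5, and Otx2, Pou3f1 and the second Sall2 start 4 each. The bases before the Sall2 5′ end held 0 CpG at a GC content of 23%, and they lay in no listed peak. The GC content before the other 5′ ends ran from 56% at Otx2 to 73% at Foxd3. At these genes all 100 bases were in a listed peak, except at Pou3f1, where 84 were. Those before the second Sall2 start lay in none.

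The promoter peaks were then compared in width and composition with the 12900 protein-coding genes that had a listed peak over their annotated 5′ end. Over those genes the median width was 1110 bp, with a 90th percentile of 1638 bp. The median GC content was 60.8%, and the median ratio of observed to expected CpG was 0.730, where 1 would be the number of CpG given by the C and G content. At Pou3f1 (chr4:124656807-124660655, plus strand) the peak chr4:124656723-124659499 was 2777 bp wide, at least as wide as 99.8% of these peaks. It reached 84 bp upstream and 2692 bp downstream of the 5′ end and covered 70.0% of the gene. At Foxd3 (chr4:99656299-99658622, plus strand) the peak chr4:99655896-99658111 was 2216 bp wide, at least as wide as 98.8% of them, and covered 78.0% of the gene. Both peaks had their centre in the coding exon of the gene. The peaks had a GC content of 70.9% and 70.4% and a CpG ratio of 0.916 and 0.915, above the 90th percentiles of 68.0% and 0.902.

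At Zic2 (chr14:122475435-122479852, plus strand) the peak chr14:122473885-122476609 was 2725 bp wide, at least as wide as 99.7% of the 5′-end peaks. It extended on both sides, 1550 bp upstream and 1174 bp downstream, with a GC content of 66.4% and a CpG ratio of 0.842. The Fgf5 peak, chr5:98253728-98254911, was close to the middle of the distribution, with a width of 1184 bp and a CpG ratio of 0.717. Otx2 (chr14:48657677-48673819, minus strand) was low in CpG ratio but not in GC content. Its peak chr14:48673549-48674940 was 1392 bp wide, with a GC content of 59.4% against the median of 60.8%. The CpG ratio of 0.554 was matched or undercut by 16.7% of the 5′-end peaks. This Otx2 peak lay mostly upstream, over 1121 bp against 270 bp downstream, and its centre was in an intron of the antisense gene Otx2os1. It also covered a TSS of Otx2os1 and of Gm49154. The 5′-end peaks of Pou3f1, Zic2 and Foxd3 likewise covered a TSS of Gm2164, 2610035F20Rik and Gm23366. The width and composition of these 4 peaks are therefore not those of the formative gene's start alone.

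**Figure D1:**
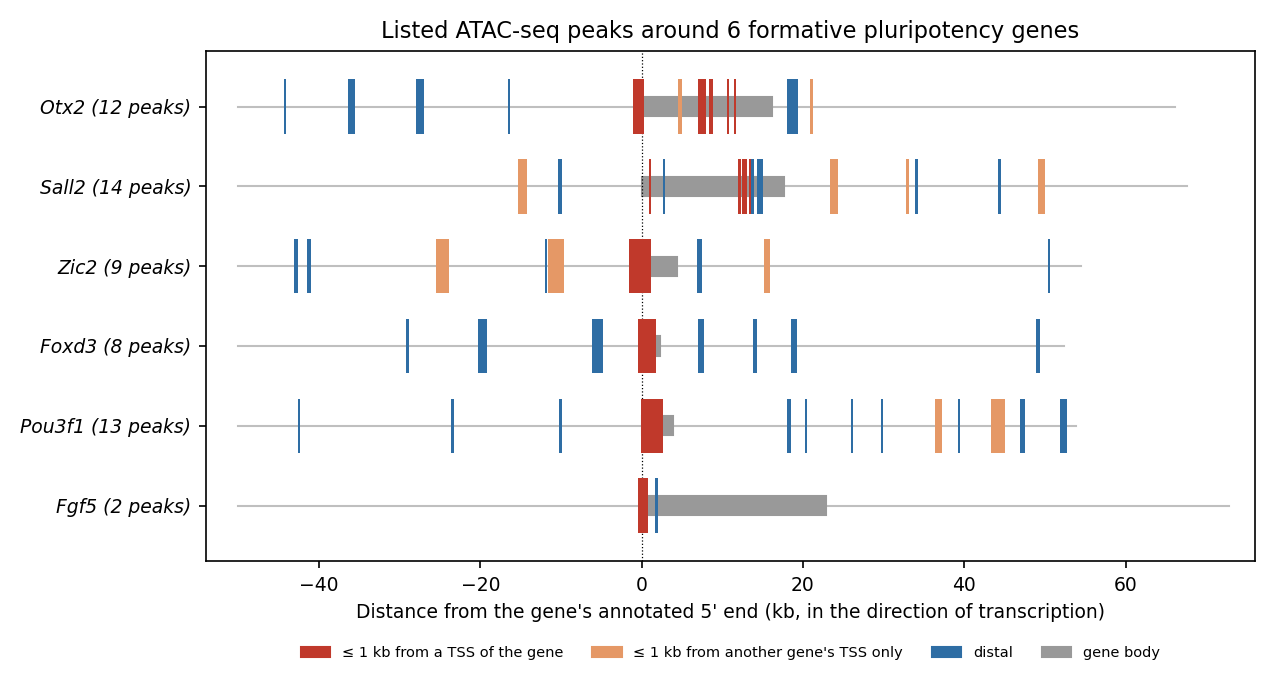
Listed peaks around the 6 genes, drawn by distance from the annotated 5′ end in kb, in the direction of transcription. Grey lines span the gene body and 50 kb on each side, grey boxes the gene body. Peaks are to scale down to a minimum drawn width, in red within 1 kb of a transcription start site (TSS) of the gene, in orange within 1 kb of a TSS of another gene only, and in blue elsewhere. The 12 peaks of Otx2 and the 14 of Sall2 spread over gene and flanks, whereas the 2 peaks of Fgf5 sit at the start of the gene.

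Sall2 was the only one of these genes without a listed peak over its annotated 5′ end. Sall2 (chr14:52311172-52328762, minus strand) has 2 annotated TSS, 12439 bp apart, and both belong to protein-coding transcripts. Neither lay inside a listed peak. The peak nearest to the upstream TSS, chr14:52327556-52327797, was a narrow one of 242 bp within an intron. At the downstream TSS the peak chr14:52315746-52316322, of 577 bp, began 1 bp away, with a GC content of 64.5% and a CpG ratio of 0.637. Of the 7 peaks over the gene, 5 lay within 1912 bp of this downstream TSS. The upstream TSS, with its sequence free of CpG, and the downstream TSS, with 4 CpG in 100 bases, thus stood in unlike sequence, and the listed peaks gathered at the latter.

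Otx2 had listed peaks along its many starts. It has 10 annotated TSS, of which 2 lay inside a listed peak and all 10 within 1000 bp of one. The peak over the 5′ end covered the TSS of the transcript Otx2-210 alone. The TSS 6175 to 6311 bp inside the gene lay in no listed peak, at 683 to 819 bp from the nearest. Uncovered starts were thus not confined to Sall2. The gene held 6 peaks, which together covered 17.2% of its length. The peak chr14:48664924-48665450, over a TSS 8713 bp inside the gene, was 527 bp wide with a CpG ratio of 0.837, higher than at the 5′ end. For each of the 12 Otx2 peaks the nearest protein-coding TSS was one of Otx2, and it was the only protein-coding gene with its annotated 5′ end in the window. The outermost peaks upstream lay in introns of Otx2os1, as far as 44080 bp from the gene.

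Fgf5 (chr5:98254184-98277030, plus strand) stood at the other end of the range. Its 2 peaks were the one over the 5′ end and a peak of 292 bp in an intron, chr5:98255888-98256179, 1704 bp from the 5′ end. Between the nearest listed peaks beyond the window on either side lay 142272 bp, in which these were the only peaks. Of 21938 protein-coding genes, 3931 or 17.9% had 2 peaks or fewer in the same kind of window. Among the 12900 genes with a peak over the 5′ end, 405 or 3.14% did, a subset examined after the value for Fgf5 was seen. The intronic peak is printed whole, since it was the only listed peak at Fgf5 beyond the promoter. It is read on the plus strand, with capitals at its matches to the forkhead core TGTTTAC, at chr5:98256034-98256040, and to the ZIC core, on the minus strand at chr5:98255890-98255898.
Fgf5 intronic peak: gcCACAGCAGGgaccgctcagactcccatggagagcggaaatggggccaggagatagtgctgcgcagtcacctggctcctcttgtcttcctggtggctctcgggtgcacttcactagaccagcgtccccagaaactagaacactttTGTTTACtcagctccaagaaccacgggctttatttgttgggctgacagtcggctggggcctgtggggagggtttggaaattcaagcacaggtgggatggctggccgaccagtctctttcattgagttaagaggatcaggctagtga
Its GC content was 55.8% and its CpG ratio 0.356, against 63.7% and 0.717 in the promoter peak.

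The number of peaks per gene was set against all 21938 protein-coding genes, whose median was 10 peaks per window. The 6 genes had a median of 10.5. Sall2, with 14 peaks, had at least as many as 73.3% of genes, Pou3f1 as 68.7%, Otx2 as 64.1%, Zic2 as 49.3%, Foxd3 as 44.5% and Fgf5 as 17.9%. By count, none was therefore at the upper end of the distribution. Per 100 kb of window, which removes the effect of gene length, the order changed little, from 12.5 peaks at Pou3f1 and 11.9 at Sall2 through 10.3 at Otx2, 8.62 at Zic2 and 7.82 at Foxd3 to 1.63 at Fgf5. The share of the window inside peaks gave another order, since peaks differed in width. Pou3f1 led with 8.73% and Zic2 followed with 8.61%, at least as much as 87.0% and 86.5% of genes. Foxd3 had 7.44%, Otx2 6.76%, Sall2 6.22% and Fgf5 1.20%. The median width was 738 bp over the 2 Fgf5 peaks, 713.5 bp at Foxd3, 576 bp at Zic2, 459.5 bp at Sall2, 459 bp at Otx2 and 375 bp at Pou3f1.

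**Figure D2:**
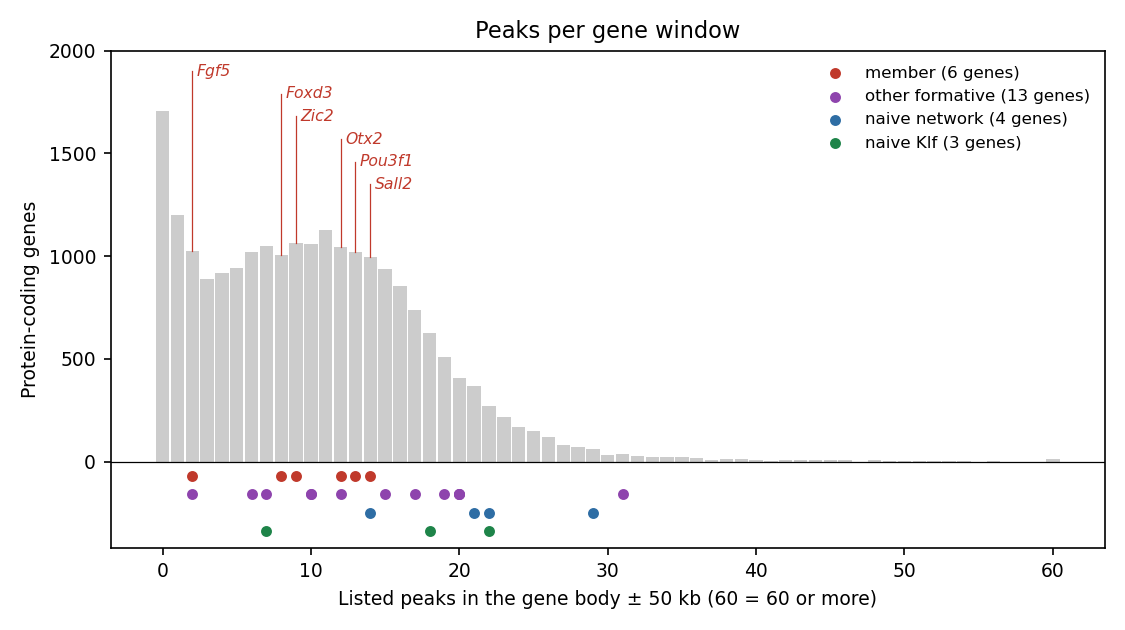
Number of protein-coding genes (vertical axis) by listed peaks in the gene body and 50 kb on each side (horizontal axis, genes with 60 or more placed at 60). Labelled lines mark the 6 formative genes, between 2 peaks at Fgf5 and 14 at Sall2. The rows of points under the axis show these genes, 13 other formative genes, 4 naive network genes and 3 naive Klf genes.

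How the rule's distance limit cut the loci was read from the peaks nearest to it. The innermost peaks left out were at Pou3f1, 50079 and 50324 bp from the gene, while the farthest Pou3f1 peak taken in was 47950 bp away. The farthest Zic2 peak was 45963 bp from the gene and the next one outside 53939 bp. At Sall2 the farthest upstream peak taken in was 14259 bp away, and the next one listed beyond it was 293466 bp from the gene. At Fgf5 the nearest peaks outside were 67464 bp upstream and 51963 bp downstream of the gene.

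Not every peak lay nearest to the gene that brought it in. For 34 of the 58 the nearest protein-coding TSS was that of the formative gene, and for 24 it was that of another gene. The 24 were 10 of the 13 peaks at Pou3f1, 7 of 9 at Zic2, 6 of 14 at Sall2 and 1 of 8 at Foxd3. At Pou3f1, 2 upstream peaks lay nearer to 3100002H09Rik, and all downstream peaks but the one 18048 bp from the 5′ end lay nearer to Utp11, Fhl3 or Sf3a3. At Sall2 5 peaks beyond its 3′ end lay nearer to Mettl3 or Rab2b and 1 upstream nearer to Olfr1513. At Zic2, 8 of the 9 peaks were also in the window of Zic5, the neighbouring ZIC family gene. The peak over the Zic5 start, chr14:122463820-122465784, was 1965 bp wide, next in width to that of Zic2 within the locus. Foxd3 was the only protein-coding gene with its 5′ end in its own window, and 7 of its 8 peaks lay nearest to it.

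Promoter-proximal peaks, at most 1000 bp from any annotated TSS, made up 24 of the 58, or 41.4% (95% Wilson interval 29.6 to 54.2), against 25.1% of all listed peaks. The rule takes in peaks at and around genes, so a high share is partly fixed by it. Of the 24, 13 were near a TSS of the formative gene itself and 11 near that of another gene only. A peak within 1000 bp of the 5′ end was present at 6 of 6 genes, against 66.1% of protein-coding genes. By the position of their centre, 26 peaks were in introns, 16 were intergenic, 9 in coding exons, 5 in UTRs and 2 in non-coding exons. No such split is given for all listed peaks, so it describes the 58 alone and is not set against a background. The 34 distal peaks are the ones at which enhancers would be sought, but the list holds no measure of enhancer activity.

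The 58 peaks had a median width of 508.5 bp (95% interval of the median 393 to 715), against 415 bp over all listed peaks. The proximal ones had a median of 844.5 bp (391 to 1392) against 815 bp, and the distal ones 459.5 bp (297 to 576) against 352 bp. The interval for the proximal peaks held the value of all proximal peaks, as did that for the distal peaks. Widths ran from 142 to 2777 bp, with 13 peaks under 300 bp and 12 over 1000 bp. The median GC content was 54.3% (50.6 to 57.3) against 50.1%, and among distal peaks 50.6% (46.4 to 55.8) against 48.6%. The median CpG ratio was 0.420 (0.330 to 0.529) against 0.259. It was 0.625 against 0.582 among proximal and 0.310 against 0.218 among distal peaks, so within each class the difference was smaller than over all 58 peaks.

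CpG-rich peaks were counted as those wider than 200 bp with a GC content over 50% and a CpG ratio over 0.6, a rule chosen after the composition of the peaks was known. They were 16 of the 58, or 27.6% (17.8 to 40.2), against 13.3% of all listed peaks. Of the 16, 15 were promoter-proximal. Among proximal peaks the share was 62.5% (42.7 to 78.8) against 45.8% of all proximal peaks, and among distal peaks it was 2.94%, or 1 of 34, against 2.44%. By window, Otx2 and Zic2 had 4 CpG-rich peaks each, Sall2 3, Foxd3 and Pou3f1 2 each and Fgf5 1. Apart from the peaks over the 5′ ends of the formative genes, several of the 16 lay over starts of other genes. These were Gm5089, Zic5 and Gm10837 at Zic2, Rab2b, Tox4 and Mettl3 at Sall2, Utp11 at Pou3f1 and the antisense gene Otx2os1 at Otx2. The distal one was chr4:99650191-99651549 at Foxd3, 1359 bp wide and 4750 bp upstream of the gene, with a CpG ratio of 0.772.

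**Figure D3:**
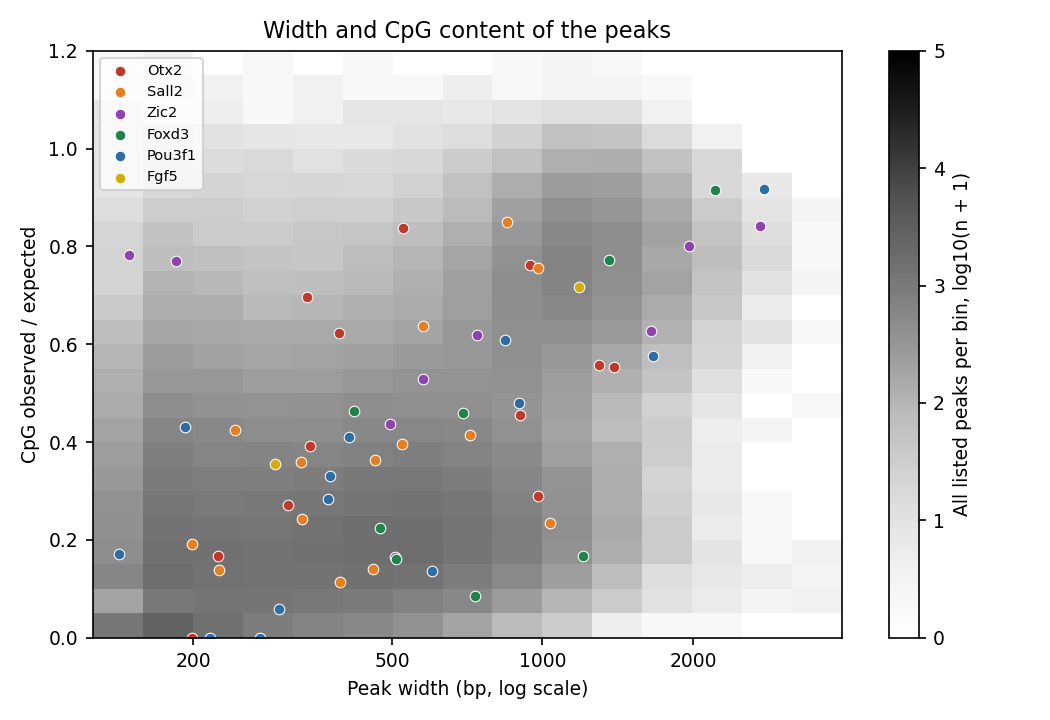
Width in bp (log scale) and ratio of observed to expected CpG of the 58 peaks, coloured by gene, over the number of all listed peaks per bin in grey, as log10(n + 1). The 3 points at the right edge, wider than 2000 bp with ratios of 0.842 to 0.916, are the peaks over the 5′ ends of Zic2, Foxd3 and Pou3f1.

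Binding motifs of pluripotency and formative factors were searched as exact consensus letters on both strands of the whole peak, with mismatches allowed only where stated. OCT4::SOX2, the composite site of the pair, was allowed 2 mismatches. It was found in 0 of the 58 peaks, against 0.243% of all listed peaks. The search was strict and called 249 of 102373 peaks, so a count of 0 in 58 was likely before it was run. The paper searched for the motif by another method, in its own set of regions, and counted more loci with it. The share found here is therefore not the rate of the motif. By the limit of 3 counts, a count of 0 allows a share of up to 5.17%, and the Wilson interval ends at 6.21%, so 58 peaks were too few to show a lower share. With 3 mismatches, 1 peak matched, against 2.00% of all. The OCT octamer ATGCAAAT, whose letters overlap the composite site, was in 1 peak against 2.56% of all. ESRRB, as TCAAGGTCA, was in 0 against 2.82%. SOX, as CCATTGT or CCTTTGT, was in 13, or 22.4% (13.6 to 34.7), against 21.3%. These shares were near those of all peaks or too small to set apart from them.

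For OTX2, forkhead and ZIC, the motifs of factors of the formative state, the shares of peaks were also near the background. The OTX2 core TAATCC was in 11 peaks, or 19.0% (10.9 to 30.9), against 13.8% of all. The forkhead core TGTTTAC was in 3, or 5.17%, against 6.66%, and the ZIC core CCTGCTGNG in 3 against 6.97%. Of the other motifs, KLF, searched by its longer consensus, was in 6, or 10.3% (4.83 to 20.8), against 8.72%. CTCF, with 1 mismatch allowed, was in 4, or 6.90% (2.71 to 16.4), against 13.0%. Since wide peaks hold more letters, matches were also counted per length. Per 10 kb of peak the 58 had 4.02 SOX matches against 4.85 over all peaks, 2.60 OTX2 matches against 2.91 and 1.65 KLF matches against 1.93. CTCF had 0.946 matches against 2.54, forkhead 0.709 against 1.34 and ZIC 0.709 against 1.39. These lower rates rest on 4 CTCF, 3 forkhead and 3 ZIC matches. In the distal peaks alone, SOX matches numbered 6.23 per 10 kb against 6.12, OTX2 3.96 against 3.37, KLF 1.70 against 1.77, CTCF 1.13 against 3.29, forkhead 1.70 against 1.64 and ZIC 1.13 against 1.49. In a window of 200 bp on the centre of each peak, OTX2 matches were in 6.90% of the 58 against 5.61%, SOX matches in 6.90% against 11.0%, and CTCF matches in 3.45% against 8.09%. None of the Otx2, Zic2, Foxd3 or Fgf5 peaks held a CTCF match.

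**Figure D4:**
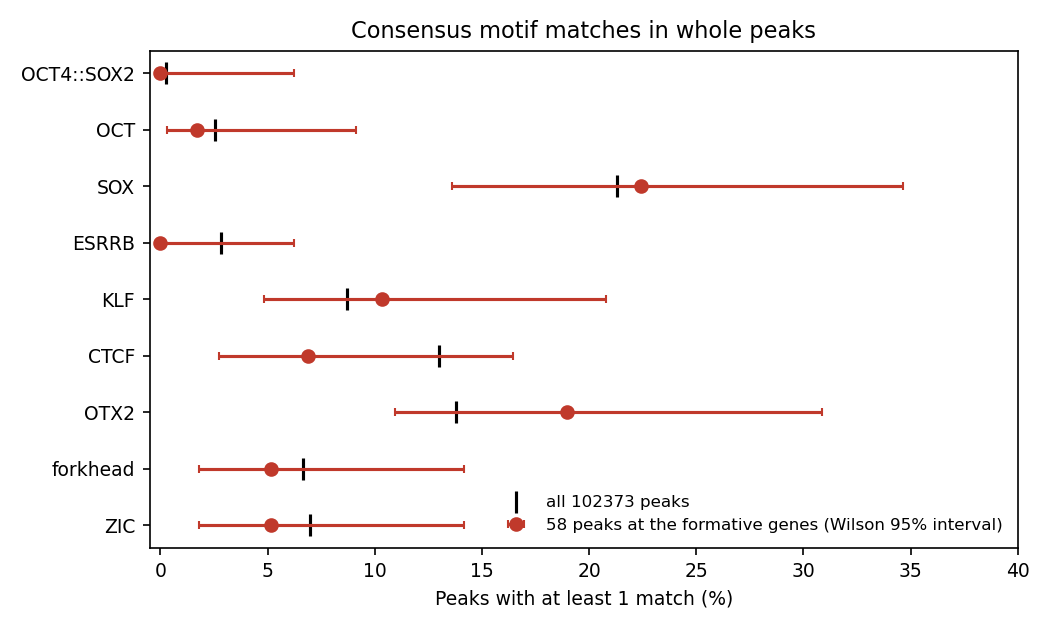
Share of peaks with at least 1 match to each of 9 consensus motifs, in percent, for the 58 peaks at the formative genes (red points with 95% Wilson intervals, which cover counting error only) and for all 102373 listed peaks (black ticks). Every black tick lies inside the interval of its motif.

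Of the 58 peaks, 28 held none of the 9 motifs, or 48.3%, against 46.1% of all listed peaks. A single kind was held by 20 against 36.3% of all, 2 kinds by 9 against 13.7%, and 3 or more by 1 against 3.86%, so these counts were near the background. SOX matches were in 4 of the 8 Foxd3 peaks and in 1 of the 13 Pou3f1 peaks, against 21.3% of all. By median, Foxd3 peaks were also wider than those of Pou3f1, and per 10 kb of peak they had 6.57 matches, against 5.47 at Sall2, 5.10 at Otx2, 3.34 at Zic2, 1.10 at Pou3f1 and 4.85 over all peaks. The Foxd3 value rests on 5 matches. Of the 8 Foxd3 peaks 7 were distal, and the value was near the 6.12 matches per 10 kb over all distal peaks. The 5 matches are printed to show where they lay, from the promoter peak to the peak 18539 bp downstream of the 5′ end. The match is in capitals, with 8 bases on each side.
Foxd3 promoter peak, chr4:99656011-99656017, plus strand: ctgtcgtcCCTTTGTtgacaatt
Foxd3 peak in an intron of Gm12682, chr4:99663752-99663758, plus strand: aaacacacCCTTTGTccttgtta
Foxd3 peak in an intron of Gm12682, chr4:99670384-99670390, minus strand: cccaactcCCTTTGTttgcacaa
Foxd3 peak in an intron of Gm12682, chr4:99675305-99675311, plus strand: tgcagactCCTTTGTctattttt
The same peak, chr4:99675493-99675499, minus strand: gtcagcagCCTTTGTccagtggc
The last of these peaks, chr4:99674838-99675569, was 732 bp wide with a CpG ratio of 0.0849, and it also held an OTX2 match. All 5 matches used the form CCTTTGT, but how often SOX matches over all listed peaks take this form was not counted.

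The OCT octamer and the closest match to the composite site were each found once. The octamer lay at Otx2, in the peak chr14:48662964-48663272, 309 bp wide and 92 bp from an internal Otx2 TSS. The stretch printed as composite site had 3 mismatches to the consensus, beyond the limit of 2, so it was not called. At 3 mismatches 2.00% of all listed peaks matched. It lay upstream of Sall2 in chr14:52343021-52344053, a peak of 1033 bp at 14259 bp from the 5′ end. This was the peak with 3 kinds of motif, with 2 SOX matches, 1 KLF match and 1 CTCF match, and it was the widest at Sall2. The capitals mark the match.
Octamer at Otx2, chr14:48663005-48663012, minus strand: tgagtcctATGCAAATgttgggtt
Composite site at Sall2, chr14:52343417-52343431, plus strand: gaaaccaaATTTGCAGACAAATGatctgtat
CTCF match at Sall2, chr14:52343777-52343790, minus strand: ctaaatggCCACCAGAGGGCACtcttaact
CTCF match at Pou3f1, chr4:124675233-124675246, minus strand: gaaagagcCCAGCAGGTGGCGCtgctgcct
At Pou3f1 the CTCF match shared bases with a ZIC match at chr4:124675239-124675247, so 1 stretch of letters counted for both motifs. Sall2 held 3 of the 4 peaks with a CTCF match and Pou3f1 the fourth. OTX2 matches were in 3 Sall2 peaks and in 2 peaks each at Otx2, Zic2, Foxd3 and Pou3f1. A match is a string of letters and not a measured site of binding.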

How the data were processed

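ATAC-seq was performed by the authors in 20 libraries. Per the labels and the study's methods, they aligned reads to mm10 (GRCm38) with STAR 2.6.1c, removed duplicates with Picard, called peaks with MACS2 2.1.1.20160309 and used bedtools to join the peaks of the 16 libraries from dox-treated cells. The deposited list gives chromosome, start and end. The methods name a limit on peak width, but 7 listed peaks exceeded 5000 bp, so it was not applied in this list. They also name the removal of peaks that overlap input peaks or blacklisted regions. Whether that was done in this list was not checked. Depth per library is unknown.

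The genes, lists and alternatives were chosen with earlier results of these data known. Gene models came from GENCODE M21 and sequence from the RefSeq copy of GRCm38, with coordinates counted from 1. Each gene counted from its annotated 5′ end, and intervals are Wilson intervals for shares and order statistics for medians, at 95%. Each peak is taken as independent, and only counting error is covered. No test was made, since peaks of one list are not replicates. Peaks named are the nearest to each 5′ end, the widest per gene, those with an OCT4::SOX2 match or the most kinds of motif; the others printed with a motif, the Foxd3 distal CpG-rich peak and the Fgf5 intronic peak were chosen after their values were seen. Alternatives changed the window, width, TSS set, mismatches and searched length. The functions were tested on simulated data. Scripts ran under Python 3.11.15 with scipy 1.17.1, pandas 2.3.3 and numpy 2.4.6, and figures were drawn with matplotlib 3.10.9.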

Additional observations from a re-analysis of the deposited data

How the results depend on the processing

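The number of peaks moved with the window, to 38 within 20000 bp and 88 within 100000 bp, against 58 within 50000 bp. The count for the composite OCT4::SOX2 motif rose from 0 to 1 with 3 mismatches, a setting that called 2.00% of all listed peaks. It was 0 in the central 200 bp, with 1 mismatch and with either of 2 sets of more permissive letters, of which the wider set was chosen after seeing the data. Those settings called 0.124%, 0.0254%, 0.501% and 0.780% of all listed peaks, in that order. Of 62 alternative values, 46 stayed within 1.5 times the main count or inside the interval, and 16 moved. Within 20000 bp, Pou3f1 had 4 peaks and Zic2 5. Within 100000 bp, Pou3f1 had 20, Zic2 16, Foxd3 13 and Fgf5 8. With peaks of at least 300 bp, Pou3f1 had 8 and Fgf5 1. The counts of these 4 genes, and their order, thus depend on the window or the width. Promoter-proximal peaks numbered 21 to 31 over the distances and TSS sets tried. No paired analysis was possible because values per library are not in the merged list, and for the same reason no replicate could be left out. Merging and unknown depth leave unmeasured in how many libraries each peak was called.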

Other observations

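Among 13 other formative genes, the median was 15 peaks per window, from 2 at Sox3 to 31 at Lef1, and the median density was 9.18 peaks per 100 kb, against 9.48 at the 6 genes of the report and 6.97 over protein-coding genes. The 13 include Zic5, whose own density is this median and whose window holds 8 of the 9 Zic2 peaks, so the 2 sets of genes share peaks. The 4 naive network genes Esrrb, Tfcp2l1, Tbx3 and Nr5a2 had 14 to 29 peaks, with a median density of 10.6, and the 3 naive genes Klf2, Klf4 and Klf5 had 7 to 22, with a median density of 17.5. Peaks with an OCT4::SOX2 match were listed at Dnmt3b, Utf1, Grhl2 and Nr5a2, with 1 each, and at none of the other genes of these lists. The lists held 189 peaks at the other formative genes, 86 at the naive network genes and 47 at the naive Klf genes. Over all listed peaks the share was 0.243%. Single matches are too few to set these genes apart from the 6 of the report.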
